A study of Mus musculus with 12 samples.

Results

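The 10 genes described here carry fatty acids into heart muscle, store them as triglyceride and release them again, and were selected by gene symbol in the left ventricle of 12 C57BL/6 mice. All 10 (Lpl, Cd36, Fabp3, Fabp4, Gpihbp1, Pnpla2, G0s2, Plin2, Plin5 and Lipe) were found among the 17052 rows of the deposited gene table, and all 10 were among the 11415 genes that passed the filter on low values and were tested. The mice underwent a sham operation or transverse aortic constriction (TAC), in which a clip narrows the aorta so that the left ventricle pumps against pressure, when 8 weeks old and were sampled when 12 weeks old. Pimobendan, a calcium sensitizer and phosphodiesterase 3 inhibitor used in heart failure, was given by mouth at 1 mg/kg per day for 4 weeks. Crossing surgery with drug gave TAC+pimobendan, TAC+control, Sham+pimobendan and Sham+control, each of 3 mice. No transgene or Cre was named, and what the control mice were given in place of the drug is not stated in the labels.

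The heart burns mostly fatty acids. Lipoprotein lipase, anchored on capillary endothelium by GPIHBP1, frees them from circulating triglyceride; CD36 moves them across cell membranes, and the fatty acid binding proteins carry them through the cytoplasm. Surplus fatty acid is stored in droplets coated by perilipins, and adipose triglyceride lipase (Pnpla2), restrained by G0S2, and hormone-sensitive lipase (Lipe) take that store apart again. Many of these genes are known targets of the PPAR nuclear receptors.

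The 2 pairs in which one product acts beside or against the other, the droplet coats Plin5 and Plin2 and the lipase Pnpla2 with its inhibitor G0s2, are shown by their promoters. RefSeq promoter windows on GRCm38.p6 were found for 7 of the 10 genes, and Lpl, Fabp4 and Gpihbp1 had no entry. The stretches printed run 5′ to 3′ along the gene from 250 bases before to 20 bases after the annotated start. Capitals mark the letters AGGTCA, a nuclear receptor half-site, or CACGTG, an E-box, each searched on both strands.
Plin5, chr17:56117529-56117798, minus strand: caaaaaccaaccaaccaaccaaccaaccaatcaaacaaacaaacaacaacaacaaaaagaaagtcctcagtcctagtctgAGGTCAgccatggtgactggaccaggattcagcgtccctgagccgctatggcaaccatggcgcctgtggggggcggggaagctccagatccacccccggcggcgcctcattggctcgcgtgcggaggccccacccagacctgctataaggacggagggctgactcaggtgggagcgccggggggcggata
Plin2, chr4:86670040-86670309, minus strand: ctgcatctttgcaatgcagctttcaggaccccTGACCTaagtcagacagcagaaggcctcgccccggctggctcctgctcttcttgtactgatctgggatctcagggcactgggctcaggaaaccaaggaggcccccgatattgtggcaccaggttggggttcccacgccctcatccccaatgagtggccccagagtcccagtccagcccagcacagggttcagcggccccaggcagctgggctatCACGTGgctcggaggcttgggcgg
G0s2, chr1:193273169-193273438, minus strand: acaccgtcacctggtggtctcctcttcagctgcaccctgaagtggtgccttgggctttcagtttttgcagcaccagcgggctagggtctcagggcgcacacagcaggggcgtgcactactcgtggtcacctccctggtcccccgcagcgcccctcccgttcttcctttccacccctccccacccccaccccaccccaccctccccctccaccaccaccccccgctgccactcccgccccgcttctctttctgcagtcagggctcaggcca
Pnpla2, chr7:141454938-141455207, plus strand: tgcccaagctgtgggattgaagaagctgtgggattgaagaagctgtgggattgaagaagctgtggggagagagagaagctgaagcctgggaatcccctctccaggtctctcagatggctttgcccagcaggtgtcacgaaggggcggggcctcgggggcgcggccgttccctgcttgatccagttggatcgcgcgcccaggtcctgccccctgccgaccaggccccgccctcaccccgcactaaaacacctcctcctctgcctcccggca
Both perilipin stretches hold the half-site, 170 bases before the start in Plin5 and 218 before it in Plin2, and Plin2 also holds an E-box that begins 4 bases before its start. The G0s2 and Pnpla2 stretches have no capitals because neither set of letters was found there. Of all 32851 windows reaching 50 bases past the start, 16.3% hold the half-site and 7.15% the E-box. The longer PPAR element, 2 copies of AGGNCA in the same direction with 1 base between them, which was in 0.381% of all windows, was in none of the 9 windows of the 7 genes. These are matches of letters only.

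Levels are given in FPKM, fragment counts scaled by gene length and by library size, which allows genes to be compared per length. Fabp3, the heart form of the fatty acid binding proteins, was by far the most abundant of the 10, with a mean of 6163 FPKM over 12 libraries and the 8th highest mean of all genes tested. Lpl (1003) and Fabp4 (963.5), the form best known from fat and capillary endothelium, came next and did not separate, since Lpl was the higher of the 2 in 8 of 12 libraries. Cd36 (433.9), Pnpla2 (282) and Gpihbp1 (134.5) followed, each above the next in every library down to Gpihbp1. G0s2 (86.7) and Plin5 (85.0) changed places between libraries, G0s2 being higher in 4 of 12. Plin2 (37.3) exceeded Lipe (21.3) in 11 of 12. The widest range belonged to G0s2, 3.52-fold between its highest and lowest library, and the narrowest to Fabp3, at 1.28-fold.

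Fat cells express Lpl, Fabp4, Plin2 and Lipe strongly, so their markers were read in the same libraries. Of 11 fat cell markers measured, 10 stayed at or under 2 FPKM in every library. Adipoq, the adipocyte hormone adiponectin, reached at most 0.68 FPKM, and Plin1 and Cidec, the coat proteins of the fat cell droplet, at most 0.33 and 0.27. The exception was the amino acid transporter Slc36a2, at 11.7 to 15.9 FPKM. The summed level of the 11 markers was 14.9 to 20.3 FPKM in TAC+control, against 13.5 to 17.3 in TAC+pimobendan. Slc36a2 made up most of it, at 12.6 to 15.9 and 12.1 to 15.3 FPKM in those groups. Of 5 brown fat cell markers 4 were measured, and Ucp1 was the one without values. Elovl3 and Dio2 reached at most 0.09 and 0.24 FPKM, while Cidea and Cox8b reached 43.4 and 2823. Genes of heart muscle dominated every library, the 10 cardiomyocyte markers summing to 48641 FPKM or more.

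The libraries differed in features that touch the results below. The number of genes at 1 FPKM or more ran from 10809 to 11292, and the table gives no counts, so the depth behind each value is unknown. The GC trend of a library, taken as Spearman's rho across genes of transcript GC content with log2 level relative to the average library, was negative in every TAC+pimobendan library (-0.518 to -0.195). It ran from -0.337 to 0.454 in Sham+control, 0.141 to 0.524 in Sham+pimobendan and 0.00547 to 0.279 in TAC+control. Red cell genes also varied, their 8 markers summing to 4213 to 6721 FPKM in TAC+control against 462 to 3076 in the other 9 libraries. In whole tissue, fewer cells of a type and less RNA per cell cannot be told apart.

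**Figure D1:**
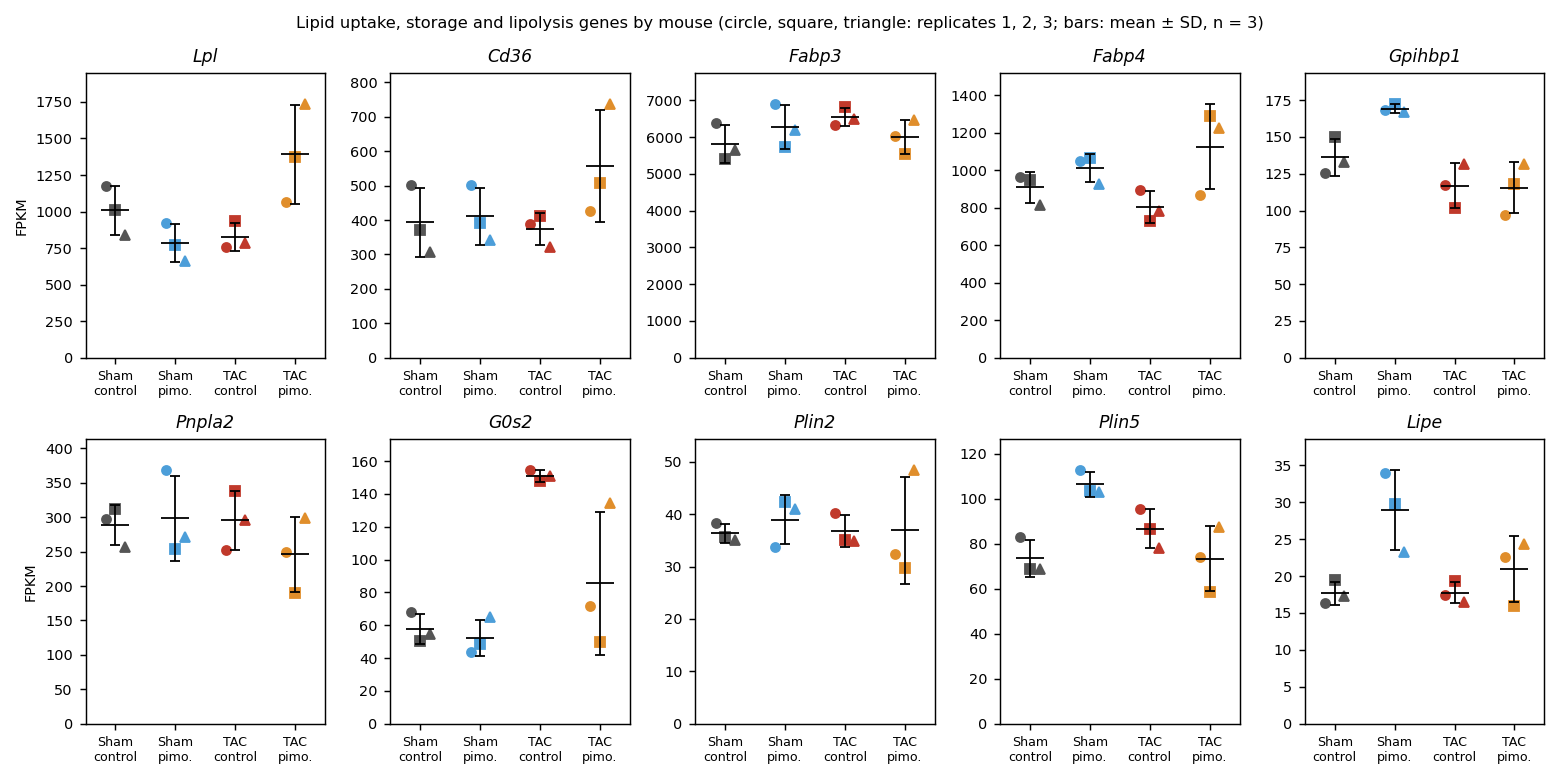
FPKM of each gene in each mouse, 1 panel per gene with its own linear axis from 0; points are libraries, coloured by group, and bars give the mean ± SD of 3. G0s2 stands apart in TAC+control, Lpl has its highest mean in TAC+pimobendan although its lowest library there, at 1063, is below 1 Sham+control library at 1176, and Gpihbp1, Plin5 and Lipe are highest in Sham+pimobendan.

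Whether pressure overload alone moved these genes was read from TAC+control against Sham+control. No gene passed the limma test at an adjusted p of 0.05 (0 of 11415, 0%), and therefore none of the 10; 951 genes (8.33%) had an unadjusted p under 0.05. G0s2, the inhibitor of Pnpla2 (chr1:193272160-193273842, GRCm38), was the only one of the 10 with an unadjusted p under that value and the only one whose groups did not overlap. The sham mice measured 68.3, 50.5 and 54.5 FPKM, and the TAC mice 155, 148 and 151 FPKM. The lowest TAC library was thus above the highest sham library, and the fitted difference was 2.61-fold on the scale of FPKM + 1, as are all folds between groups below. The log2 difference of FPKM + 1 was 1.38 ± 0.27 (SE; 95% interval 0.81 to 1.96). Its unadjusted p of 0.000177 was the 3rd smallest of all genes, and its limma adjusted p was 0.384. Across all genes, 3% did not overlap upward, 9.74% downward and 12.7% in either direction.

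Whether G0s2 passed depended on which libraries shared the estimate of the spread. Fitted on the 6 libraries of the comparison alone, its adjusted p in limma was 0.00674, and without TAC+pimobendan replicate 3 it was 0.0219; over all 21 alternatives it ran from 0.00674 to 0.792, and the difference stayed between 1.29 and 1.51. Pnpla2 itself (chr7:141454319-141460743), the enzyme that opens triglyceride breakdown, had a mean of 288.6 ± 28.8 FPKM (SD, n = 3) after sham surgery and 295 ± 43.2 after TAC. Its coactivator Abhd5, named for that role after its values were seen, lay between 20.7 and 23.6 FPKM in these 6 libraries. The ratio of G0s2 to Pnpla2 within a library was therefore 0.162 to 0.230 in Sham+control and 0.436 to 0.615 in TAC+control, with no overlap. Hemoglobin and other red cell genes were highest in the same TAC+control libraries, as given above, and their part in the result was not tested.

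The uptake genes gave values that overlapped between sham and TAC. Lpl (chr8:68880424-68907647) was at 1176, 1009 and 842 FPKM after sham surgery and at 758, 938 and 787 FPKM after TAC, a log2 difference of -0.28 ± 0.17 (limma adjusted p = 0.693). Only the highest TAC library exceeded the lowest sham library. Cd36 (chr5:17781690-17888959), Fabp3 (chr4:130308778-130315463), Fabp4 (chr3:10204342-10208602) and Gpihbp1 (chr15:75596635-75598213) had log2 differences from -0.22 to 0.17. The storage and lipolysis genes Plin2 (chr4:86626910-86670191), Plin5 (chr17:56107720-56118023) and Lipe (chr7:25379527-25398486) had differences from 0.00768 to 0.24. Apart from G0s2 the widest interval was that of Cd36, at -0.51 to 0.41, which spans differences of that size in either direction.

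Pimobendan in the loaded ventricle was read from TAC+pimobendan against TAC+control. Here 373 of 11415 genes were called (3.27%), 360 of them higher (3.15%), and 1 of the 10 genes was among them; 4 of the 10 had an unadjusted p under 0.05, against 26.6% of all genes. Lpl rose. It measured 758, 938 and 787 FPKM in TAC+control, against 1063, 1373 and 1738 FPKM in TAC+pimobendan. All 3 drug-treated libraries were above all 3 TAC+control libraries, and the fitted difference was 1.65-fold. The log2 difference was 0.73 ± 0.17 (95% interval 0.35 to 1.10, limma adjusted p = 0.0474).

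Markers of other cells differed in the same comparison. The 12 macrophage markers summed to 339 to 365 FPKM in TAC+control, against 371 to 487.5 in TAC+pimobendan, without overlap. All 12 had a positive difference, with a median of 0.295 against 0.0954 over all genes. Of the 12, 1 was called higher, against 3.15% of all genes, the lysosomal protease Ctss (log2 0.82 ± 0.17, limma adjusted p = 0.0409). The 10 cardiomyocyte markers summed to 58993 to 65241 FPKM in TAC+control, against 48641 to 56323 in TAC+pimobendan, also without overlap. Of these 10, 2 were called lower, against 0.114% of all genes, the sarcomere genes Actn2 (-0.38 ± 0.0776, limma adjusted p = 0.0409) and Actc1 (-0.53 ± 0.13, limma adjusted p = 0.0482). The 10 went both ways, with 6 negative and 4 positive differences and a median of -0.0756. Ttn lay higher without overlap (0.55 ± 0.14, limma adjusted p = 0.0502). The part of these macrophage and cardiomyocyte markers in the Lpl result was not tested.

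The call on Lpl was narrow. It was lost under median-ratio scaling (limma adjusted p = 0.0784), quantile normalization (0.123), no filter on low values (0.0768) and a fit of only the groups compared (0.0891). It was also lost when any of 9 single libraries was left out (0.0501 to 0.163, log2 0.551 to 0.726), and held without Sham+control replicate 1, TAC+control replicate 2 or TAC+pimobendan replicate 1. The difference was above 0 in every alternative tried, from 0.485 to 0.906.

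The other genes of uptake did not pass the test. Cd36, the fatty acid translocase, measured 389, 413 and 321 FPKM in TAC+control, against 426, 509 and 738 in TAC+pimobendan, and so did not overlap (log2 0.54 ± 0.21, limma adjusted p = 0.129). Fabp4 measured 898, 731 and 782 FPKM against 866, 1289 and 1227, where the first drug-treated library fell inside the control range. Its log2 difference was 0.47 ± 0.14 with an adjusted p in limma of 0.0609. That gene was called in TPM (0.0381) and without TAC+pimobendan replicate 1 (0.00695). Fabp3 and Gpihbp1, the cytoplasmic carrier and the capillary anchor, differed by -0.12 ± 0.0879 and -0.0186 ± 0.12. Non-overlap in either direction was seen for 3 of the 10 (Lpl, Cd36 and G0s2) and for 29.9% of all genes, 23.3% upward and 6.64% downward.

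These differences went with transcript GC content. Lpl (43.5% GC), Fabp4 (42.7%) and Cd36 (38.4%) were the 3 genes under 45% and the 3 with the highest differences, while the other 7 ran from 52.1% to 58.9% and from -0.93 to 0.21. Among all tested genes the median difference in this comparison was 0.289 for the 2717 under 45% GC, 0.0761 for the 5939 from 45% to 55% and -0.0289 for the 2678 above that. After the trend of each library with GC was removed, Lpl stood at 0.49 (limma adjusted p = 0.12), Fabp4 at 0.21 and Cd36 at 0.16. G0s2 was at -0.92 with the trend removed and -0.93 without. The same removal left 0 genes called in every comparison, with 2282 at an unadjusted p under 0.05 in this one.

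**Figure D2:**
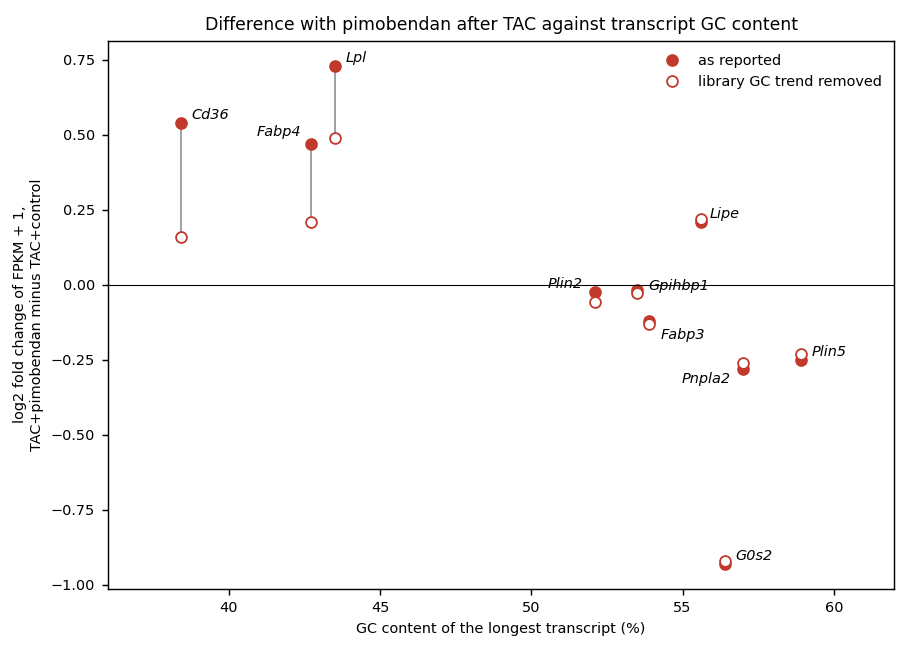
Log2 difference of FPKM + 1 between TAC+pimobendan and TAC+control against the GC content of each gene's longest transcript; filled points are the values reported and open points those after the GC trend of each library was removed. Cd36, Fabp4 and Lpl, all under 45% GC, move toward 0 while the other 7 genes stay near their values.

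On the lipolysis side the largest difference again belonged to G0s2. After 155, 148 and 151 FPKM in the untreated TAC mice, the drug-treated mice measured 71.9, 50.1 and 134 FPKM. All 3 were below all 3 controls, but replicate 3 lay near them and the first and second near the sham range. The log2 difference was -0.93 ± 0.27 (95% interval -1.51 to -0.36), with a limma adjusted p of 0.0597. Without TAC+pimobendan replicate 3 it was -1.32 with an adjusted p of 0.0383; over all alternatives it ran from -1.32 to -0.614. Pnpla2 differed by -0.28 ± 0.17 and Lipe by 0.21 ± 0.16, with overlapping groups in both. Plin5 and Plin2, the coats of the oxidative and of the general droplet, differed by -0.25 ± 0.13 and -0.0239 ± 0.15.

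Pimobendan without pressure overload was read from Sham+pimobendan against Sham+control. No gene was called by limma (0 of 11415, 0%), and 518 (4.54%) had an unadjusted p under 0.05. Lipe, Plin5 and Gpihbp1 were the 3 of the 10 with such a p and the 3 whose groups did not overlap; all were higher with the drug, as were 6.16% of all genes without overlap, against 4.98% lower. Lipe, hormone-sensitive lipase, measured 16.4, 19.4 and 17.3 FPKM in Sham+control, against 34.0, 29.8 and 23.2 with the drug (log2 0.67 ± 0.16). Plin5, which tethers droplets to mitochondria, measured 82.9, 68.8 and 68.7 FPKM and then 113, 103 and 103 (0.53 ± 0.13). Gpihbp1 measured 126, 150.2 and 133 FPKM and then 168, 173 and 167 (0.31 ± 0.12). In each gene the lowest treated library was above the highest control, and the gap was widest relative to the spread for Gpihbp1 and Plin5.

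The adjusted p of each of those 3 was 0.91 in limma. In p they ranked 7th (Lipe), 10th (Plin5) and 169th (Gpihbp1) of 11415. Lipe and Plin5 are each overlapped by another gene, and the deposited table lists both on the plus strand where GENCODE has them on the minus strand. Whether the counting used strand is not given in the sources used here, so reads of the overlapping partner may have been counted in these 2 genes. The lncRNA 4732471J01Rik spans all of Lipe, and Plin4 shares 2229 bases with Plin5. These overlaps are of whole gene spans, introns included, and the overlap of exons was not measured. Plin4, named for that overlap, measured 58.8, 67.5 and 35.6 FPKM in Sham+control, against 78.7, 49.8 and 40.6 in Sham+pimobendan, so its groups overlapped. Lpl lay lower with the drug in sham mice, at 921, 769 and 663 FPKM against 1176, 1009 and 842, with overlapping groups and a log2 difference of -0.36 ± 0.17.

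**Figure D3:**
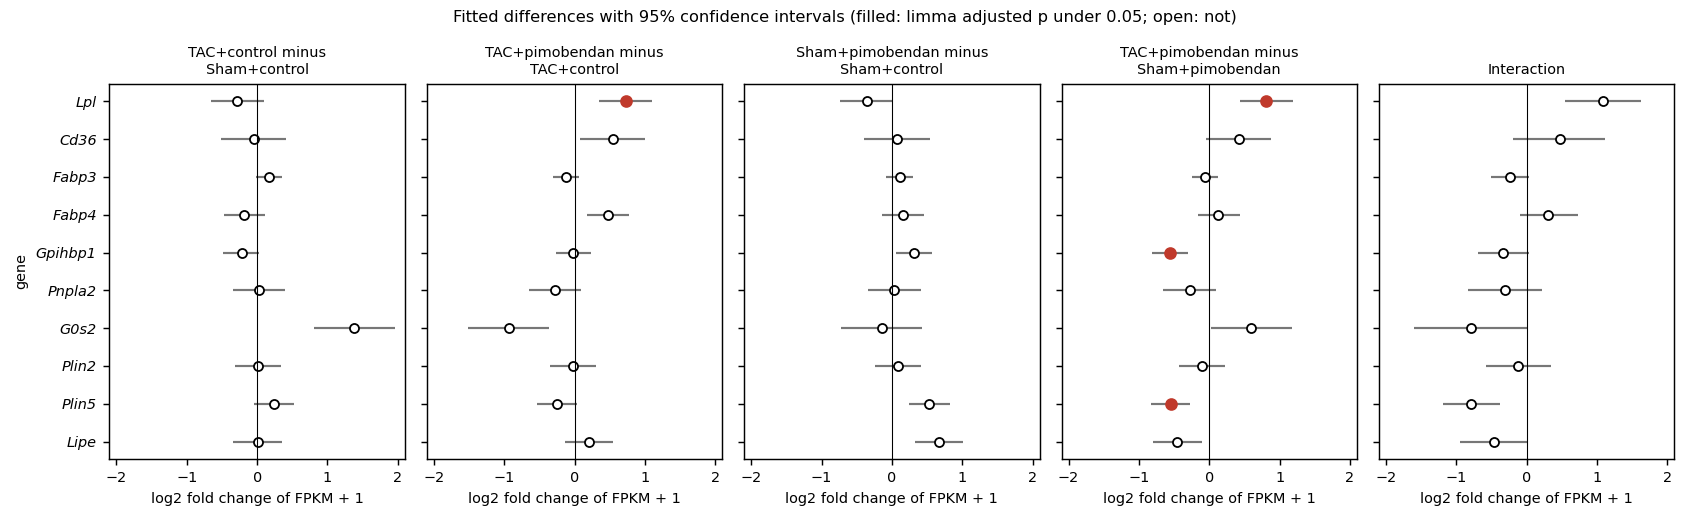
Log2 difference of FPKM + 1 with its 95% confidence interval for each gene, 1 panel per comparison; filled points have a limma adjusted p under 0.05. Calls are seen for Lpl in both comparisons of TAC+pimobendan and for Gpihbp1 and Plin5 against Sham+pimobendan, while the far-right G0s2 interval in the first panel is not a call.

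Pressure overload under the drug was read from TAC+pimobendan against Sham+pimobendan, a comparison that shares the TAC+pimobendan libraries with the one above. It called 558 of 11415 genes (4.89%), 530 higher (4.64%) and 28 lower (0.245%), and 3 of the 10 genes were among them. Lpl rose by 1.75-fold, from 921, 769 and 663 FPKM to 1063, 1373 and 1738 (log2 0.81 ± 0.17, limma adjusted p = 0.0315). Gpihbp1, which holds that enzyme on the capillary wall, fell by 1.47-fold, from 168, 173 and 167 FPKM to 97.0, 118 and 132 (-0.56 ± 0.12, limma adjusted p = 0.0314). Plin5 fell by 1.46-fold, from 113, 103 and 103 FPKM to 74.0, 58.5 and 87.4 (-0.55 ± 0.13, limma adjusted p = 0.0386). None of the 3 overlapped between groups, as was so for 27.9% of all genes (18.6% upward, 9.35% downward), and 5 of the 10 had an unadjusted p under 0.05, against 22.9%. The enzyme and its anchor therefore moved in opposite directions.

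Lipe measured 34.0, 29.8 and 23.2 FPKM in Sham+pimobendan, against 22.5, 15.9 and 24.4 in TAC+pimobendan, overlapping in 1 library of each group (log2 -0.46 ± 0.16, limma adjusted p = 0.108). G0s2 measured 44.0, 48.7 and 64.9 FPKM and then 71.9, 50.1 and 134, also overlapping (0.59 ± 0.27, limma adjusted p = 0.205). Cd36, Fabp3, Fabp4, Pnpla2 and Plin2 had differences from -0.28 to 0.42 and did not pass. All 3 calls were lost with no filter, with only the groups compared, with the GC trend removed and without Sham+pimobendan replicate 2 or 3 or TAC+pimobendan replicate 2 or 3 (limma adjusted p 0.0629 to 0.22). The call on Plin5 was also lost without Sham+control replicate 2 or Sham+pimobendan replicate 1, and in TPM (0.0501), and the calls on Plin5 and Gpihbp1 under quantile normalization (0.0645 and 0.0505).

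Endothelial markers were read beside Gpihbp1 and went both ways. Of 12 capillary markers tested, 7 had a negative and 5 a positive difference in this comparison, with a median of -0.27 against -0.00608 over all genes. The test called 2 of the 12 lower, against 0.245% of all genes, the junction protein Pecam1 (log2 -0.45 ± 0.119, limma adjusted p = 0.0497) and the adhesion molecule Esam (-0.39 ± 0.0951, limma adjusted p = 0.0409). Pecam1 was called in 5 and Esam in 9 of 21 alternatives. None of the 12 was called higher. Of the 12, 7 had an unadjusted p under 0.05, against 22.9% of all genes. Without overlap, 4 lay lower and 1 higher, against 9.35% and 18.6% of all genes. The negative differences with an unadjusted p under 0.05 included Tie1 (-0.33 ± 0.0899, limma adjusted p = 0.0531) and Cdh5 (-0.40 ± 0.139, limma adjusted p = 0.109). The positive ones were those of Emcn (0.37 ± 0.147, limma adjusted p = 0.163) and of Ptprb (0.30 ± 0.104, limma adjusted p = 0.109), whose groups did not overlap. Their summed level was 502 to 664 FPKM in Sham+pimobendan, against 490 to 550.0 in TAC+pimobendan, which overlap. Their part in the Gpihbp1 result was not tested.

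Whether the drug altered the effect of pressure overload was asked of the interaction, the TAC difference with pimobendan minus that without. No gene was called by limma (0 of 11415, 0%), with 2312 (20.3%) at an unadjusted p under 0.05. Lpl and Plin5 were the 2 of the 10 with such a p. The interaction of Lpl was 1.09 ± 0.25, from a TAC difference of -0.28 without and 0.81 with the drug, and that of Plin5 was -0.79 ± 0.19, from 0.24 to -0.55. Both had a limma adjusted p of 0.0853, the smallest value reached and one shared with other genes. In p they ranked 77th (Lpl) and 123rd (Plin5) of 11415. Without TAC+pimobendan replicate 1, 773 genes were called and both were among them, Lpl at 1.27 (limma adjusted p = 0.013) and Plin5 at -0.80 (0.0398). That was the only alternative with a call, 1 of 20 for each gene. Over the 20 the limma adjusted p of each reached 0.241.

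Ratios within a library do not depend on the scaling of that library, but keep its GC trend where the 2 genes differ in GC content. Lpl (43.5% GC) is set over Gpihbp1 (53.5%), and Cd36 (38.4%) over Fabp3 (53.9%). The part of the GC trend in these ratios was not tested. Lpl over Gpihbp1 was 9.37, 6.72 and 6.32 in Sham+control, 5.48, 4.45 and 3.97 in Sham+pimobendan, and 6.48, 9.23 and 5.96 in TAC+control. It was 11, 11.6 and 13.2 in TAC+pimobendan. The TAC+pimobendan libraries were above, and the Sham+pimobendan libraries below, all others. G0s2 over Pnpla2 was 0.119 to 0.239 in the 6 sham libraries, 0.436 to 0.615 in TAC+control and 0.264 to 0.450 in TAC+pimobendan, where only replicate 3 reached the TAC+control range. Plin5 over Plin2 averaged 2.77 ± 0.506 (SD, n = 3) in Sham+pimobendan and between 2.01 and 2.36 elsewhere. Cd36 over Fabp3 averaged 0.0921 ± 0.0218 in TAC+pimobendan and between 0.0572 and 0.0671 elsewhere, its first TAC+pimobendan library, at 0.0705, lying inside the range of the sham groups. These ratios are given as a description, since 3 against 3 libraries cannot reach an exact permutation p under 0.10.

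**Figure D4:**
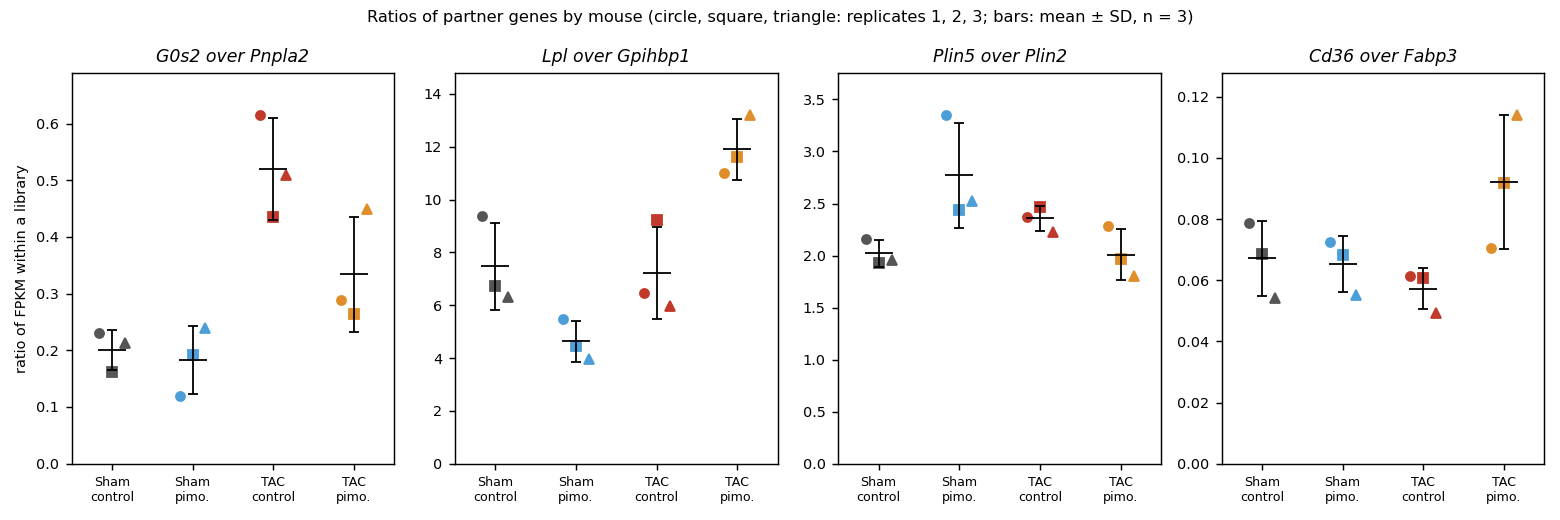
Ratio of FPKM of 2 genes within each library, 1 panel per ratio with a linear axis from 0; points are libraries and bars the mean ± SD of 3. G0s2 over Pnpla2 is highest in TAC+control and Lpl over Gpihbp1 highest in TAC+pimobendan.

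Spread within groups was uneven. In TAC+pimobendan, replicate 3 was the highest of its group in 9 of the 10 genes, Fabp4 being the exception, and replicate 2 was the lowest in 6 (Fabp3, Pnpla2, G0s2, Plin2, Plin5 and Lipe). In Sham+control, replicate 1 was the highest in 7 and replicate 3 the lowest in 6. The SD of G0s2 was 51.2% of its mean in TAC+pimobendan and 2.37% in TAC+control, and that of Gpihbp1 was 1.76% in Sham+pimobendan. Plin2 had similar means in all 4 groups, from 36.4 to 39.0 FPKM, while its TAC+pimobendan libraries ran from 29.7 to 48.5. Another row with the symbol Plin2, a pseudogene (Gm12551 in RefSeq) that overlaps the gene, was listed at 0 in 11 libraries and at 0.11 FPKM in the other. Reads shared by the gene and the pseudogene could make the Plin2 level uncertain, and such sharing was not measured.

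Across the 12 libraries Lpl and Cd36 varied together, with a Pearson r of 0.854, and of 0.936 after group means were removed. G0s2 and Plin2 had r = 0.335 over all libraries and 0.886 within groups. Likeness was also sought over all tested genes as Pearson's r of log2(FPKM + 1) over 12 libraries, which share their group and GC trends. The genes most like Lpl were Ubr3 (0.984), N4bp2l2 and Abca1 (0.979 each), and the most like Cd36 were Rnase4 (0.958), Fgf1 (0.945) and Scp2 (0.943). Pnpla2 was followed most closely by Acaa2 (0.922), a mitochondrial enzyme of fatty acid oxidation, and Retsat (0.919). Plin5 was followed by Lrp5 (0.937), Agpat3 (0.894) and Mlycd (0.887), and G0s2 by Ppp1r3b (0.921), Mrm1 (0.884) and Rab3ip (0.877).

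The wider lipid pathway was described from 5 lists. Of 18 tested genes of uptake and activation, 1 (with 3.15% of all genes called higher) rose with pimobendan after TAC, the heparan sulfate proteoglycan Sdc4 (log2 0.75 ± 0.18, limma adjusted p = 0.0472). It measured 6.06, 4.06 and 7.12 FPKM in TAC+control, against 10.6, 10.9 and 9.11 in TAC+pimobendan, with no overlap, and was called in 6 of 21 alternatives. In TAC+pimobendan against Sham+pimobendan 1 of the 18 rose, with 4.64% of all genes called higher. It was Acsl4, an acyl-CoA synthetase for arachidonic acid (0.51 ± 0.132, limma adjusted p = 0.0468), at 1.33 to 2.79 FPKM in those libraries. Acsl4 was called in 5 of 21 alternatives and stood at 0.11 (limma adjusted p = 0.622) with the GC trend removed. None of the 18 was called lower in either comparison. The median difference of this list was 0.144 with the drug after TAC, against 0.0954 over all genes.

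Triglyceride synthesis gave 0 calls of 16 tested genes in each limma comparison. With pimobendan in sham mice, where no gene of any list was called, 14 of the 16 had a positive difference. An unadjusted p under 0.05 was seen for 3 of the 16, against 4.54% of all genes. The smallest p there belonged to Agpat2, which acylates lysophosphatidic acid, at 57.7, 48.9 and 51.3 FPKM against 73.6, 66.1 and 60.0 (0.33 ± 0.0899, limma adjusted p = 0.91). Its groups did not overlap. The list median was 0.0747, against 0.0128 over all genes.

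Of 12 droplet coat and assembly genes tested, only Rab18, a droplet-associated GTPase, was called in TAC+pimobendan against Sham+pimobendan, where 4.89% of all genes were called. It rose from 22.0 to 22.7 FPKM to 27.2 to 31.0 (0.38 ± 0.0953, limma adjusted p = 0.0447). With the GC trend removed Rab18 stood at -0.000428 (limma adjusted p = 0.998), and it was called in 6 of 21 alternatives. The median of the 12 was -0.129 in that comparison, against -0.00608 over all genes and -0.131 over those above 55% GC. Of 13 lipolysis partners tested, 1 was called higher (4.64% of all genes) and 1 lower (0.245%) in the same comparison. Pnpla8, a calcium-independent phospholipase, rose there (0.86 ± 0.181, limma adjusted p = 0.0314). Aqp7, the glycerol channel through which the product of lipolysis leaves cells, fell (-0.58 ± 0.111, limma adjusted p = 0.0314). Each was called in 13 of 21 alternatives, and with the GC trend removed Pnpla8 stood at 0.46 and Aqp7 at -0.58 (limma adjusted p = 0.116 and 0.0916). Aqp7 measured 16.8, 18.4 and 15.1 FPKM in Sham+pimobendan, against 12.5, 10.4 and 9.93 in TAC+pimobendan. In the untreated groups it measured 11.6, 11.8 and 10.9 FPKM after sham surgery and 7.92, 9.84 and 8.35 after TAC, again without overlap (-0.36 ± 0.111, limma adjusted p = 0.473).

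None of the 18 tested PPAR regulators and targets was called in any limma comparison. With pimobendan in sham mice 15 of 18 had a positive difference, with a median of 0.153 against 0.0128 over all genes. An unadjusted p under 0.05 was seen for 4 of the 18, against 4.54% of all genes. The smallest was that of Ucp2, a mitochondrial carrier, at 47.2, 48.5 and 46.5 FPKM against 66.3, 76.7 and 58.8 (0.49 ± 0.118, limma adjusted p = 0.91). In TAC+pimobendan against Sham+pimobendan 14 of 18 were negative, with a median of -0.181 against -0.00608. The median of all genes in that comparison was 0.277 under 45% GC, -0.0255 from 45% to 55% and -0.131 above that. The part of GC content in the list median was not tested. Of the 18, 3 had an unadjusted p under 0.05, against 22.9% of all genes. Cpt1b, the muscle gate for fatty acids entering mitochondria, had the smallest p there, at 407, 369 and 369.6 FPKM against 340.4, 291 and 329.9 (-0.25 ± 0.0771, limma adjusted p = 0.0719). Both comparisons share the Sham+pimobendan libraries.

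**Figure D5:**
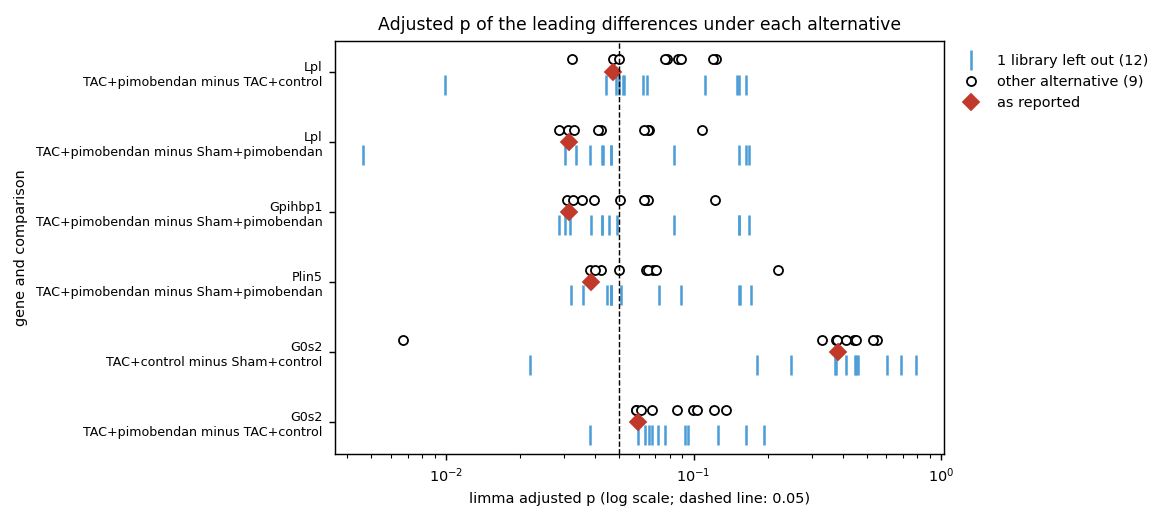
Limma adjusted p on a log axis for 6 leading differences; diamonds are the reported values, circles the 9 alternatives with all libraries kept, bars the 12 fits with 1 library left out, and the dashed line marks 0.05. The 4 calls sit just left of the line and cross it under many alternatives, whereas G0s2 after TAC crosses to the left in 2 of 21.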

How the data were processed

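Messenger RNA of the left ventricle of 12 mice, selected with oligo(dT) beads per the labels' protocols, was sequenced, and samples were grouped by their titles, 3 mice in each of 4 groups. The authors deposited FPKM values (fragments scaled to gene length and library size) and TPM values, the same scaled to a fixed total, per the file headers. DESeq2 1.4.5, RSEM 1.2.12, Bowtie2 2.2.5, HISAT2 2.0.4 and the build GRCm38 are listed per the submitters' processing notes, and the role of each is not given in the sources used here. No counts were used and the depth is unknown.

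The test was limma 3.58.1 (R 4.3.3, limma-trend) on log2(FPKM + 1), which understates differences of low genes. All 12 libraries entered 1 fit with 1 mean per group, over the 11415 genes that reached 1 FPKM in 3 or more libraries. Benjamini-Hochberg adjustment ran over all of these, with calls made at an adjusted p under 0.05. Shares of all genes called or not overlapping are given as background. The fit was tested on simulated data. Start and end coordinates were those of the deposited gene table, and strand came from GENCODE annotation of GRCm38 by gene symbol. The GC content of the longest GENCODE transcript was matched by NCBI gene ID and was available for 11334 tested genes. Promoters came from RefSeq.

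The alternatives were TPM, median-ratio scaling, quantile normalization, no filter, a mean of at least 1 FPKM, a pseudocount of 0.1, the replicate number as a block, only the groups compared, removal of each library's GC trend by lowess, and leaving out each library. Each of the 10 genes was named in every comparison. From each of the 5 lipid lists the called genes were named, or else the one with the smallest p, and for likeness up to 3 genes with the highest r; 1 of these is not reported here. Genes outside this rule are marked as such or serve as cell type markers. The 10 genes and the lists were chosen with earlier results of these data known. Tables and figures were made with Python 3.11.15, pandas 2.3.3 and matplotlib 3.10.9.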

Additional observations from a re-analysis of the deposited data

How the results depend on the processing

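With 3 mice a group and unknown depth, calls near the threshold depended on settings, and the cause was not tested. For pimobendan after TAC, 373 genes and 1 of the 10 became 1110 and 2 in TPM, and 0 and 0 under median-ratio scaling, quantile normalization, no filter, only the groups compared or GC trend removed. For TAC under pimobendan, 558 and 3 became 355 genes under median-ratio scaling, 298 and 1 under quantile normalization, and 0 and 0 with no filter, only the groups compared or GC trend removed. For TAC without drug, only the groups compared gave 2 genes and 1 of the 10 (G0s2). The median difference of all genes for pimobendan after TAC was 0.0954, and 0.168 in TPM and -0.00578 under median-ratio scaling.

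With the replicate number as a block (replicate block), 1 gene and 0 of the 10 were called for pimobendan after TAC, and 0 and 0 for TAC under pimobendan. Lpl then had a limma adjusted p of 0.0865 and 0.0655 in those 2 comparisons, and Gpihbp1 and Plin5 had 0.0652. The titles give the numbers as biological replicates and name no pairing of mice. Deviations of same-numbered libraries had r from -0.44 to 0.253, over 0.1 in 4 of 18 pairs. Of 12 libraries, 2 correlated best with their own number. With 3 libraries a group, these values cannot settle whether the numbers pair the mice.

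Leaving out 1 library gave 0 to 4 genes and 0 to 1 of the 10 for TAC without drug, 0 to 1190 and 0 to 2 for pimobendan after TAC, 0 to 1225 and 0 to 3 for TAC under pimobendan, and 0 to 773 and 0 to 2 for the interaction. Pimobendan after sham kept 0.

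Of 1040 alternative log2 differences of the 10 genes, 37 changed sign, none from a called value. For TAC without drug, Cd36 became 0.0253 under median-ratio scaling and 0.0188 with the GC trend removed, and Pnpla2, Plin2 and Lipe became -0.0157, -0.0283 and -0.0342 in TPM. For pimobendan after TAC, Fabp3 became 0.00936 and Gpihbp1 0.014 under quantile normalization, and Gpihbp1 0.0543 and Plin2 0.0479 in TPM. For pimobendan after sham, Pnpla2 became -0.0326 with the GC trend removed. For TAC under pimobendan, Fabp3 became 0.0142 under quantile normalization, and with the GC trend removed Cd36, Fabp3 and Fabp4 became -0.00867, 0.0323 and -0.129. In the interaction that removal gave Cd36 -0.0274 and Fabp4 -0.0247. With 1 library left out the ranges that crossed 0 were, for TAC without drug, -0.215 to 0.143 (Cd36), -0.0748 to 0.137 (Pnpla2), -0.0508 to 0.0523 (Plin2) and -0.0519 to 0.0736 (Lipe). For pimobendan after TAC they were -0.116 to 0.101 (Gpihbp1) and -0.233 to 0.111 (Plin2), and after sham -0.0912 to 0.267 (Cd36) and -0.131 to 0.138 (Pnpla2). For TAC under pimobendan they were -0.124 to 0.0125 (Fabp3) and -0.31 to 0.0336 (Plin2), and for the interaction -0.325 to 0.0191 (Plin2).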

Other observations

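For the genes whose nearest neighbours were not given above, the highest Pearson r over 12 libraries was with Zfp706 (0.902) for Fabp3, Snx10 (0.905) for Fabp4, Smyd3 (0.872) for Gpihbp1, Hist1h1c (0.853) for Plin2 and Tmem179 (0.867) for Lipe. With group means removed these stood at 0.924, 0.860, 0.683, 0.872 and 0.804. The third neighbour of Fabp3 was Slc25a20 (0.825), the carnitine carrier of the inner mitochondrial membrane.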
